A study of Mustela putorius furo with 8 samples.

Results

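Proliferating ductal cells are the cells that the deposited cell table names Prolif_ductal. They form 1 cluster, number 27 of the clustering made on the wild-type (WT) libraries, and held 298 of the 32945 retained cells of the series, against 21302 other WT cells. The data are single-cell RNA sequencing of ferret pancreatic ductal epithelia (PDE), which are cultures of duct cells grown at an air-liquid interface. Cells from ducts of newborn ferrets, 1 to 3 days old, were passaged 10 times, seeded on coated permeable supports and sampled after 2, 5, 7 or 9 days at the interface (D2, D5, D7 and D9). The animals were WT or homozygous for a CFTR knockout (CFTR KO/KO, here CF), and the labels name no treatment of the cultures. Each genotype and day gave 1 library, cells are not assigned to animals within a library, and the cells had left the pancreas 10 passages earlier, which limits how far they stand for duct cells in the animal. With 1 library for each group no test between groups can be made, so folds are given with 95% intervals that cover counting error only, and D5 and D7 are set side by side as 2 libraries in place of replicates.

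A cell that divides copies its DNA in S phase and separates the copies in M phase. Replication genes such as those of the MCM helicase and PCNA, the sliding clamp of the DNA polymerases, are transcribed from late G1 into S phase. A later group is transcribed in G2 and M, and it includes the B-type cyclins, which switch on the kinase CDK1, the kinetochore and spindle proteins, and CDC20, which directs the anaphase-promoting complex to its targets. Duct cells of the adult pancreas divide rarely, and they line the tree that carries digestive enzymes and a bicarbonate-rich fluid that depends on CFTR. KRT19 and KRT7 are keratins of that simple epithelium.

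The cells were found mainly on D5. They numbered 40 of 6224 retained WT cells on D2 (0.643%, exact binomial interval 0.460 to 0.874), 199 of 5326 on D5 (3.74%, 3.24 to 4.28), 58 of 4634 on D7 (1.25%, 0.952 to 1.62) and 1 of 5416 on D9 (0.0185%, 0.000467 to 0.103). The D5 library had the largest share, with 1 library a day and intervals over its cells alone, and 66.8% of the cells came from the D5 library. In CF the name was given to 0 of 4499, 2750, 1607 and 2489 cells on D2, D5, D7 and D9. The upper ends of the exact binomial intervals were 0.0820%, 0.134%, 0.229% and 0.148%. WT and CF cells were clustered and named separately, and the part of that naming in the absence of the name from CF was not tested. A CF cluster with a like level of mitotic genes was deposited under the name Prolif_acinar and is described further on. Of the 298 barcodes 1 also occurred in another library (0.336%), against 148 of 32796 barcodes in the whole series (0.451%).

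**Figure D1:**
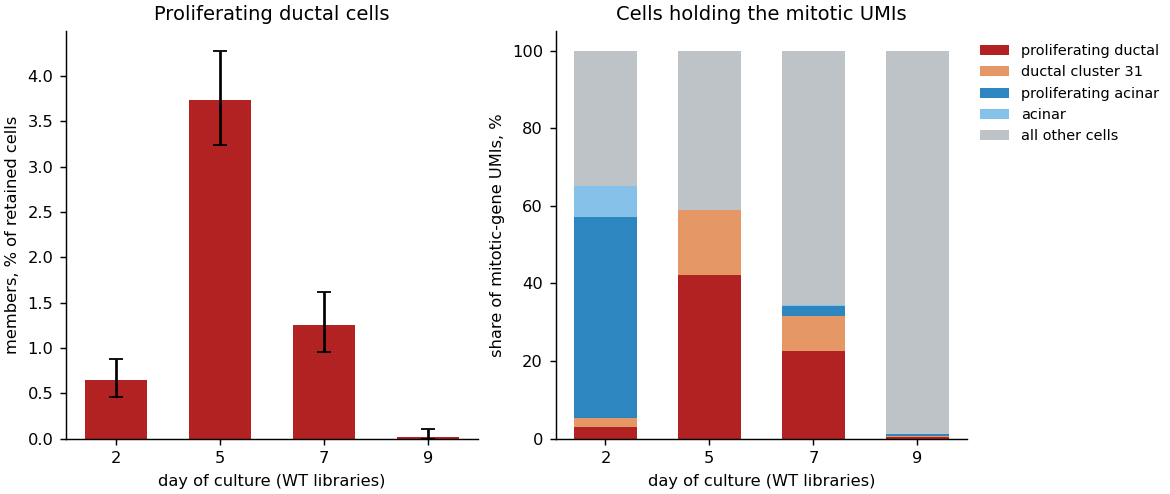
Left, proliferating ductal cells as a percent of the retained WT cells of each day, with exact 95% binomial intervals for counting error. Right, percent of the UMIs of the mitotic gene lists of each WT library that came from each group of cells, where the proliferating ductal cells give 42.2% on D5 and 22.5% on D7.

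Markers of the cycle and of the duct were both present. The cycle markers used for the check were CCNB2, a B-type cyclin, CDC20, CDCA2, which recruits a phosphatase to mitotic chromosomes, MKI67, the antigen behind the Ki-67 stain, and TOP2A, the topoisomerase that untangles replicated DNA. At least 1 of these 5 genes had a UMI (unique molecular identifier, a counted RNA molecule) in 40 of 40 cells on D2, 189 of 199 on D5 and 58 of 58 on D7. All 5 had one in 14, 105 and 28 cells. KRT19 had a UMI in 100% of the cells on D5 and D7, but also in 99.96% and 99.98% of the background cells described next, so that it does not tell the groups apart. The 10 genes that led the cluster by fold against all other WT cells were CCNB3, CCNB1, SGO2, KIF14, CENPF, CDKN3, ASPM, LOC101692819, PRR11 and CDCA3, with CCNB3 first at 23.2 against 0.571 CPM (the UMIs of the gene scaled to the total of the cell group). The cluster was made from these genes, so every difference between its cells and the rest describes the cluster and tests nothing.

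Thinning each cell to 3000 UMIs set cells of different depth on 1 footing. CCNB1, the main mitotic B-type cyclin, then had a UMI in 49.7% of the proliferating ductal cells on D5 and in 29 of 58 on D7, MKI67 in 48.7% and 41.4%, TOP2A in 44.2% and 41.4%, CCNB2 in 39.7% and 48.3%, CDC20 in 35.2% and 41.4%, and CDCA2 in 13.6% and 13.8%. In 4817 and 4439 other WT cells, those outside the proliferating and acinar names and outside the replication-rich cluster 31 described further on, CCNB1 had one in 0.104% and 0.113%, MKI67 in 0.353% and 0.135%, TOP2A in 0.623% and 0.270%, CCNB2 in 0.125% and 0.113%, CDC20 in 0.249% and 0.270%, and CDCA2 in 0.0830% and 0.0451%. The median depth before thinning was 16435 and 15691 UMIs in those background cells, of which 150 and 72 were too shallow to enter. In cluster 31 TOP2A had a UMI in 43.1% and 34.0% of the cells after thinning, MKI67 in 22.5% and 18.0% and CCNB2 in 12.5% and 6.0%. There CCNB1 had one in 9.375% and 8.0%, CDC20 in 5.0% and 6.0% and CDCA2 in 8.125% and 8.0%. Without thinning the shares among the proliferating ductal cells of D5 were 90.5% for MKI67, 87.4% for CDC20, 83.9% for CCNB2, 67.3% for TOP2A and 62.8% for CDCA2.

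The cells were also deeper than their neighbours. Their median was 17763 UMIs on D2, 29277 on D5 (interquartile range 19222 to 37958) and 31076 on D7 (20782 to 39502), against 16355, 16662 and 15790 in the other WT cells, which is 1.76 times as many on D5 and 1.97 times on D7. On D5 22.1% and on D7 36.2% of them lay above the 95th percentile of UMIs of their library, where 4.35% and 4.61% of the other WT cells did. The median number of genes per cell was 5413 and 5422 against 3966 and 3768. Mitochondrial RNA took 7.16% and 10.2% against 6.59% and 10.7%. The authors removed doublets before deposit, and what part more RNA per cell or remaining doublets had in this depth was not tested. By the deposited phase calls 194 of the D5 cells were G2M and 5 were S, and all 58 cells of D7 were G2M. The same calls put 326 other WT cells of D5 in G2M, 1389 in S and 3412 in G1, and on D7 924, 1634 and 2018, and no cycling is read from these calls alone.

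In the comparison with all other WT cells of the same library, a gene was called when its log2 difference, taken on log2(CPM + 1), was at least 1 in the same direction on D5 and D7. Of the 9404 genes tested, which had a mean of at least 5 CPM over the 4 WT libraries, 273 were called higher (2.90%) and 563 lower (5.99%). On D5 alone 303 passed upward (3.22%) and 753 downward (8.01%), and on D7 alone 399 (4.24%) and 742 (7.89%). The median gene differed by -0.03 and 0.01. Of the 103 genes of the mitotic lists 99 were in the files and 67 passed the filter, and 65 of these 67 were called higher and none lower, with a median log2 difference of 3.74 on D5 and 4.24 on D7. The replication lists had 21 of 31 tested members called higher, with medians of 1.25 and 1.78. The filter took in the proliferating ductal cells too, so a gene could pass it through its level in them. With no filter beyond 1 UMI, 96 mitotic and 24 replication genes were called higher, where 467 of 19935 genes were.

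Among the mitotic cyclins and their partners all 8 tested genes were called higher. CCNB1 stood at 217, 253 and 283 CPM in the proliferating ductal cells of D2, D5 and D7 and at 21.4, 2.50 and 2.00 CPM in the other WT cells, a ratio of 101 (88.1 to 116) on D5 and 142 (119 to 170) on D7. CCNB2 stood at 119, 177 and 163 CPM against 16.7, 2.94 and 1.43, a ratio of 60.4 (52.9 to 69.1) and 114 (91.6 to 142). CCNA2, the A-type cyclin of S phase and G2, stood at 93.2, 128 and 118 CPM against 13.1, 3.90 and 1.63. In each gene the groups were far apart in every library, and the gap was narrowest on D2. The other WT cells of D2 included 650 cells named Prolif_acinar, a name that no WT cell of D5 carries. CDK1, the kinase that these cyclins activate, differed by 3.84 and 4.40 on the log2 scale, and CKS2, its small binding subunit, by 3.67 and 4.06.

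The mitotic kinases had 6 of 6 members called higher. BUB1B, a checkpoint protein that holds CDC20 back, stood at 95.6, 125 and 118 CPM against 11.8, 2.80 and 1.47 (log2 difference 5.05 on D5 and 5.60 on D7, as in the pairs of values that follow). AURKB, the kinase of the chromosomal passenger complex, stood at 95.6, 143 and 124 CPM against 22, 5.90 and 2.18 (4.38 and 5.29). BUB1 differed by 4.71 and 5.28. PLK1, another mitotic kinase, differed less, by 3.02 and 2.95, with 120 and 119 CPM against 14 and 14.5. After thinning PLK1 had a UMI in 3.61% and 3.83% of the background cells and in 29.1% and 19.0% of the proliferating ductal cells.

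Kinetochore and centromere genes were called higher in 17 of 17 cases. CENPF, a large protein of the outer kinetochore, stood at 546, 918 and 655 CPM against 66.0, 16.8 and 6.68 (5.69 and 6.42). SGO2, a protector of centromere cohesion, stood at 114, 161 and 117 CPM against 12.0, 2.45 and 0.986 (5.55 and 5.90). CENPE, the motor that brings chromosomes to the spindle equator, stood at 218, 343 and 313 CPM against 26.1, 6.84 and 4.63 (5.45 and 5.80). The smallest difference of the list was that of SKA2, at 1.32 and 1.42.

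Spindle and motor genes were called higher in 19 of 19 cases. ASPM, which sits at the spindle poles, stood at 249, 326 and 247 CPM against 28.0, 2.58 and 2.12, a ratio of 126 (111 to 145) and 117 (97.6 to 140). NUSAP1, which bundles spindle microtubules, stood at 197, 287 and 259 CPM against 22.4, 5.49 and 3.46, and TPX2, which activates AURKA on the spindle, at 235, 318 and 283 CPM against 36.9, 9.91 and 4.2. On the lower edge of the list was TUBB, a tubulin that all cells use, at 1.56 and 1.84.

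Condensins and chromosome proteins were called higher in 7 of 7 cases, cytokinesis genes in 4 of 4 and anaphase genes in 7 of 9. TOP2A stood at 264, 514 and 410 CPM against 46.9, 15.0 and 5.68, a ratio of 34.3 (32.2 to 36.5) and 72.2 (64.2 to 81.2). MKI67 stood at 157, 250 and 200 CPM against 27.6, 7.25 and 2.80. CEP55, which acts at the final cut between daughter cells, stood at 77.2, 95.3 and 97.4 CPM against 8.53, 3.00 and 1.44. In the proliferating ductal cells the first 2 of these were higher on D5 than on D7, and in the other cells all 3 were lower on D7. UBE2C, the ubiquitin-conjugating enzyme of the anaphase-promoting complex, stood at 465, 582 and 606 CPM against 67.5, 15.1 and 8.55, and CDC20 at 157, 179 and 164 against 14.8, 2.78 and 1.92.

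The anaphase genes not called were GMNN and FZR1. GMNN, geminin, blocks the relicensing of origins until mitosis ends, and it stood at 179, 175 and 207 CPM against 221, 190 and 195 in the other cells (log2 difference -0.12 and 0.09). Its level in the other cells was thus as high as in the dividing ones. FZR1, which takes the place of CDC20 on the complex in late mitosis and G1, stood at 19.6, 30.3 and 33.6 CPM against 19.2, 20.7 and 19.6 (0.53 and 0.75). CDCA2, which lay under the filter on levels, stood at 39.2, 60.8 and 52.8 CPM against 6.69, 1.81 and 0.789.

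Of the 31 tested replication genes 21 were called higher and 10 were not called. Origin and fork genes were called higher in 14 of 24 cases and nucleotide enzymes in 7 of 7. RRM2, the S-phase subunit of ribonucleotide reductase, stood at 242, 252 and 210 CPM against 111, 40.0 and 15.3 (2.63 and 3.69). DCK, a deoxynucleoside salvage kinase, stood at 180, 196 and 212 CPM against 60.4, 29.3 and 17.4 (2.70 and 3.53). MCM10, which acts when the helicase is switched on, stood at 15.9, 24.8 and 25.9 CPM against 11.9, 4.8 and 1.76 (2.15 and 3.28).

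The best known S-phase markers were not among those called. PCNA stood at 91.9, 128 and 157 CPM against 136, 103 and 73.1, which put the proliferating ductal cells below the other WT cells on D2 and above them on D5 and D7 (0.32 and 1.09). MCM4, a helicase subunit, stood at 23.3, 19.9 and 15.4 CPM against 39.4, 17.3 and 6.41 (0.20 and 1.15). MCM2 differed by 0.27 and 1.17 and MCM6 by 0.10 and 0.63. In each of these genes the level in the other WT cells was lower on D7 than on D2, and D5 missed the threshold.

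Chromatin genes were called higher in 7 of 12 cases, repair genes in 4 of 6 and transcription factors of the cycle in 2 of 10. HMGB2, a DNA-bending protein abundant in dividing cells, stood at 498, 759 and 689 CPM against 123, 73.6 and 54.1 (3.35 and 3.65). FANCI, of the Fanconi anemia repair complex, stood at 27, 35 and 37.4 CPM against 9.57, 4.23 and 2.93 (2.78 and 3.29). MYBL2, which drives G2 and M genes as part of the MuvB complex, stood at 99.3, 64.0 and 68.8 CPM against 31.5, 11.8 and 5.24 (2.34 and 3.48), and LIN9, a MuvB subunit, differed by 1.49 and 1.78. FOXM1, its partner at those genes, lay under the filter and stood at 31.9, 29.7 and 32.5 CPM against 4.84, 1.36 and 0.431. DNMT1, the maintenance DNA methyltransferase, was not called (0.86 and 1.41).

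None of the 7 tested G1 cyclin and kinase genes was called, where 2.90% of all genes were called higher and 5.99% lower. CCND1, cyclin D1, which couples growth signals to G1, was lower on both days without passing the threshold on D5, at 27, 34.0 and 46.2 CPM against 117, 65.9 and 116, a ratio of 0.516 on D5 and 0.398 on D7. CCND2 was higher than in the other cells on D2 and lower after that, at 351, 179 and 204 CPM against 271, 392 and 337 (-1.13 and -0.72). Of the 7 tested genes in the list of inhibitors of cyclin-dependent kinases, which also holds cyclin G and BTG genes, 1 was called. CDKN2D, the INK4 inhibitor p19, was higher, at 27, 46.5 and 51.2 CPM against 11.8, 10.2 and 8.86 (2.08 and 2.40). CDKN1A, the inhibitor p21, was lower at -1.02 and -0.65 without being called.

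Of the 9 ductal markers tested none was called, which is near the share over all genes (2.90% higher and 5.99% lower). KRT19 stood at 5470, 5759 and 5294 CPM against 5110, 5049 and 4606, a ratio of 1.14 (1.13 to 1.15) on D5 and 1.15 on D7. KRT7 differed by -0.08 and 0.20, and KRT5, a basal keratin, by 0.12 and 0.18. The highest was ADIRF at 0.98 and 1.05, and the lowest were KRT15 at -0.70 and -0.42 and KRT8 at -0.55 and -0.46. The median of the 9 was 0.12 and 0.20 against all other WT cells and -0.31 and -0.17 against the WT class named Ductal. The summed CPM of the ductal list was 15556, 15749 and 15057 against 12459, 13913 and 12313. EPCAM and CDH1, the epithelial adhesion proteins, differed by 0.02 and -0.20 and by -0.46 and -0.36, and none of the 9 glycolysis genes or 8 immediate early genes was called.

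Which other lists were lower depended on the comparison cells. Against all other WT cells, where 5.99% of all genes were called lower, trefoil factors and mucins were called lower in 8 of 9 cases, secreted proteins in 5 of 6, centroacinar progenitor genes in 6 of 9, contractile and matrix genes in 7 of 10 and centroacinar genes in 2 of 4. Against the WT class named Ductal, where 3.56% of all genes were, the same lists were lower in 2 of 9, 2 of 6, 0 of 9, 7 of 10 and 0 of 4 cases. Against all other WT cells again, MUC1, a mucin of the apical membrane, stood at 354, 146 and 147 CPM against 422, 684 and 737 (-2.22 and -2.32). MUC16 stood at 52.7, 13.9 and 14.3 CPM against 82.1, 156 and 147 (-3.40 and -3.28). WFDC2, a secreted protease inhibitor, stood at 3.68, 64.3 and 24.8 CPM against 129, 1731 and 1566 (-4.73 and -5.93). All 3 genes were already lower on D2, by least for MUC1, and the other cells stood higher from D5 on. CALD1, an actin-binding regulator of contraction, stood at 2.45, 22.4 and 42.9 CPM against 2.24, 595 and 272 (-4.67 and -2.64), and TAGLN at 0, 1.78 and 5.50 CPM against 0.141, 258 and 109.

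Of the 13 tested transcription factors of the duct and its progenitors, 2 were called higher, 1 lower and 10 not, with a median of 0.25 on both days, where 2.90% of all genes were called higher and 5.99% lower. PAX6, a transcription factor of the developing pancreas and eye, was higher, at 183, 226 and 192 CPM against 18.7, 57.9 and 40.3, a ratio of 3.90 (3.68 to 4.14) on D5 and 4.77 (4.26 to 5.33) on D7. FOXA2, a foregut transcription factor, was higher at 1.40 and 1.66. SOX2 was lower, at 14.7, 1.30 and 8.25 CPM against 115, 72.9 and 71.2, a ratio of 0.0178 (0.00768 to 0.0351) on D5 and 0.116 (0.0648 to 0.191) on D7. Those D5 and D7 levels of SOX2 rest on 8 and 15 UMIs in 6 of 199 and 6 of 58 cells. The D2 level rests on 3 of 40 cells, of which 1 held 10 UMIs. Outside that list, ISL1, a LIM homeodomain factor of the endocrine list, was higher at 1.55 and 1.48, and PROM1, a centroacinar marker that encodes CD133, was lower, at 0, 3.40 and 11.6 CPM against 61.9, 139 and 222. CFTR, the chloride and bicarbonate channel, stood at 6.13, 5.19 and 3.30 CPM against 6.57, 17.7 and 16.1, a ratio of 0.293 (0.200 to 0.416) on D5 and 0.205 (0.0750 to 0.447) on D7, from 32 and 6 UMIs. PDX1 had 0 UMIs in the proliferating ductal cells.

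Many defining markers of other cell types were at 0. INS, GCG, NEUROD1, NEUROG3 and PCSK1 of endocrine cells, PTPRC, CD3E, CD79A and CSF1R of blood cells and COL1A1, COL1A2 and COL3A1 of fibroblasts were at 0 UMIs in them. The endocrine genes among these, with CD3E, CD79A, CSF1R and COL3A1, were at 0 in the other WT cells of D2, D5 and D7 too. There PTPRC was also at 0 on D7, and COL1A1 and COL1A2 on D2. In the proliferating ductal cells CHGA, a granule protein of endocrine cells, had a UMI on D5. LYZ, lysozyme, was above 0 on D2, D5 and D7. The 1 tested gene of the 9 endocrine markers was ISL1, called higher (1.55 and 1.48), and with it the summed endocrine list stood at 45.4, 80.1 and 55.0 CPM against 12.9, 26.7 and 19.2. In the other SOX2-low WT cells, described further on, that list stood at 41.3, 54.2 and 42.3 CPM. ISL1 was not called against those cells (0.55 and 0.37) or against cluster 31 (0.46 and 0.27). The 1 tested gene of the 6 immune markers was CD68, a lysosomal protein of macrophages, called lower at -1.03 and -1.46. The 8 fibroblast markers summed to 27, 30.5 and 34.1 CPM against 16.1, 47.4 and 43.9, with VIM, vimentin, above 0 on D2, D5 and D7 and PDGFRA above 0 on D5 and D7. Of 13 acinar enzyme genes listed 4 were in the files, and all 4 were at 0. In the other WT cells these 4 summed to 11, 9 and 9 UMIs on D2, D5 and D7 (0.0967, 0.0947 and 0.111 CPM), so the 0 counts do not tell the groups apart. The endothelial list gave 1 UMI in each of D2, D5 and D7. The acinar-like list summed to 832, 850 and 926 CPM against 1405, 755 and 794 in the other WT cells. Of its 7 genes 2 were called lower, PRDX2, a peroxiredoxin (-1.32 and -1.50), and NUPR1, a stress-response protein (-1.36 and -1.61), and none higher. The part of these markers in the other differences was not tested.

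Outside the cycle lists, 170 of 9261 tested genes were called higher and 563 lower, the latter including the genes of other lists given above. The rankings that follow leave out the genes of every list. The 10 highest of the genes called higher were led by GTSE1, a microtubule-binding protein of G2 and M (4.03 and 4.44), FAM83D, which recruits casein kinase to the spindle (4.02 and 4.14), and DEPDC1 (3.58 and 4.15). LOC101678877, LOC101672396, LOC101684416, PCLAF, the PCNA-associated factor, H1-5, a linker histone, UBE2T, the ubiquitin-conjugating enzyme of the Fanconi pathway, and ESCO2, a cohesin acetyltransferase, followed. The 10 lowest, whose differences were larger in size, were LOC106003392, LYPD2, LOC106005313, TCIM, ENPP3, LOC101684378, CUNH15orf48, PDZK1IP1, LOC101680039 and TGFB2. LYPD2, for example, stood at 5.67 and 8.80 CPM on D5 and D7 against 288 and 543.

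The genes called lower depended on which WT cells were set beside the cluster. Summed over its cells, the cluster had 3.97 CPM of SOX2 and 215 CPM of PAX6. The 41 WT clusters fell into 12 with at most 4.87 CPM of SOX2 and 29 with at least 50.6 CPM, and the proliferating ductal cells were 1 of the 12. PAX6 ranged from 58.4 to 215 CPM in the 12 and reached at most 78.6 in the 29. In the 30 CF clusters SOX2 reached no more than 1.08 CPM, and PAX6 ranged from 38.2 to 126 CPM. This grouping was made after the data were seen. Because animals were pooled and no cell is assigned to one, a difference between animals and a difference between cell states cannot be told apart here.

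Against the other 10 SOX2-low WT clusters, without cluster 31, 229 genes were called higher (2.44%) and 49 lower (0.521%). Mitotic genes were called higher in 65 of 67 cases, with medians of 4.13 and 4.33, and replication genes in 17 of 31, with medians of 1.04 and 1.72. The count of lower genes was thus 563 against all other WT cells and 49 against the SOX2-low cells. Of the 10 contractile and matrix genes none was called lower, and PAX6 differed by 0.81 and 0.83, CFTR by 0.05 and -1.36 and KRT19 by -0.20 and -0.15. SOX2 itself, which defined this set, was at 0.32 and 1.93, so its direction turned with the comparison cells, and so did that of CALD1, on the mean of both days. The difference in depth was smaller as well, at 1.5 and 1.66 times the median UMIs of the SOX2-low cells.

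Among the genes lower in this narrower comparison were trefoil factors, mucins and MMP7. TFF1, TFF2, TFF3, MUC5AC and MUC16 were called lower, which is 5 of 9 of the trefoil and mucin list, with TFF2, a secreted stabiliser of mucus, at -3.53 and -3.14. LTF, lactoferrin, was at -2.76 and -2.92 and BPIFB1, a secreted antimicrobial protein, at -2.65 and -3.46. Against cluster 31, described further on, 0 of the 9 trefoil and mucin genes were called lower and 1 higher. Of the 6 tested secreted proteins 0 were called lower there, so these low levels are not particular to the proliferating ductal cells. MMP7, a matrix metalloprotease of duct and gland epithelia, stood at 8.91 and 56.7 CPM against 134 and 293 (-3.77 and -2.35). CCND1 was called lower, at 34.0 and 46.2 CPM against 78.6 and 159 (-1.18 and -1.76). Higher genes outside the lists were led by LOC101678877, GTSE1, FAM83D, H1-5 and PCLAF.

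**Figure D2:**
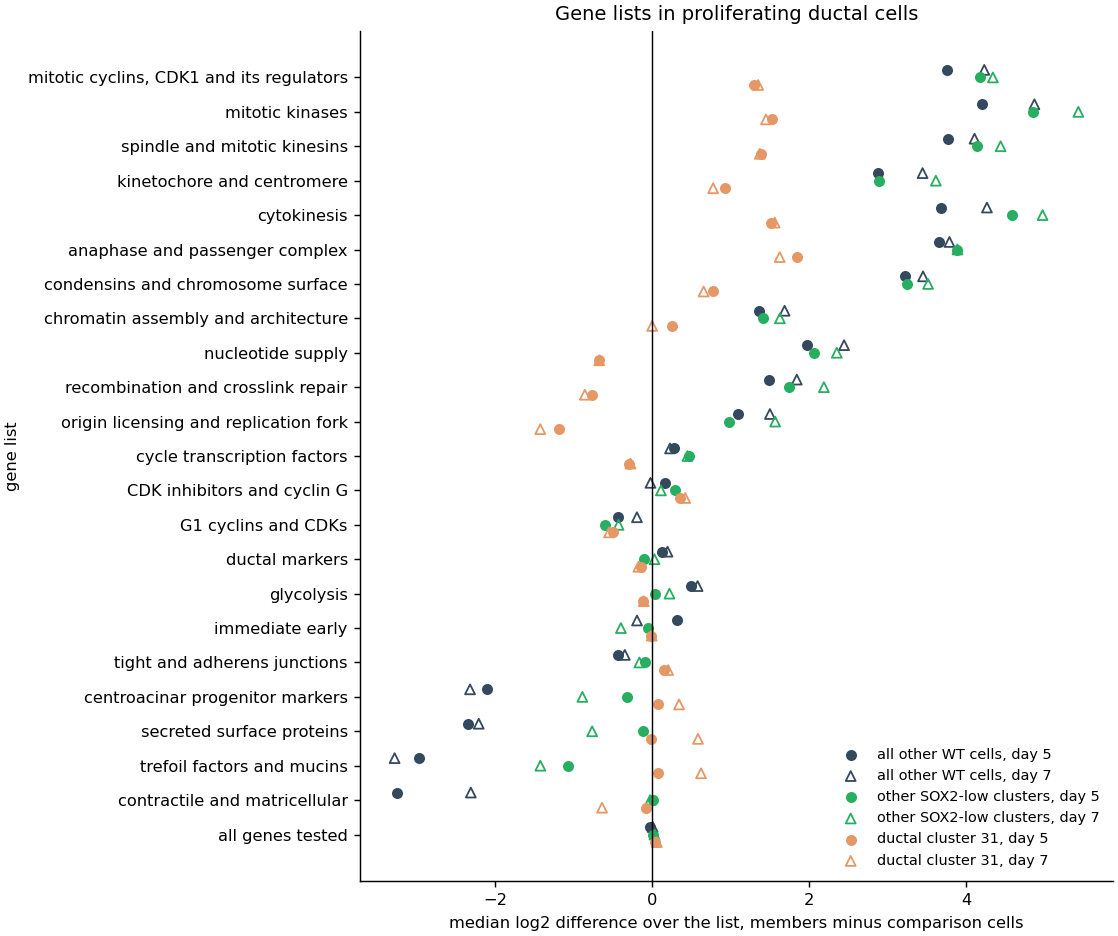
Median log2 difference, log2(CPM + 1) of proliferating ductal cells minus that of 3 groups of comparison cells, over the tested genes of each list (circles D5, triangles D7). Mitotic lists lie well above 0 against all other WT cells and the SOX2-low clusters, while against cluster 31 the replication lists lie below 0.

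Of the other WT clusters, the most alike over all tested genes was cluster 31, which is named Ductal. Over the 9404 tested genes its log2(CPM + 1) levels correlated with those of the proliferating ductal cells at r = 0.979 on D5 and 0.961 on D7, ahead of clusters 11 (0.960 and 0.952) and 0 (0.938 and 0.926). With the cycle lists left out, cluster 31 was at 0.982 and 0.965 and cluster 11 at 0.978 and 0.969, so that cluster 11 came first on D7. These r describe sums over cells of 1 library, differ with the number of cells summed and carry no test. Cluster 31 held 251 cells, 160 of them on D5 and 50 on D7, and was singled out after its values were seen. Its cells were as deep as the proliferating ductal cells, at medians of 31228 and 29888 UMIs, so that the depth ratio was 0.938 and 1.04. By the deposited phase calls 116 of its D5 cells were S and 44 were G2M.

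Against cluster 31 the mitotic and replication genes went in opposite directions. Of all tested genes 72 were called higher (0.766%) and 63 lower (0.670%). Mitotic genes were called higher in 40 of 67 cases, with medians of 1.27 and 1.29, and replication genes were called lower in 20 of 31, with medians of -1.12 and -1.27, and none higher. ASPM stood at 326 and 247 CPM against 25.4 and 20.3, a ratio of 12.8 on D5 and 12.1 on D7. CCNB1 stood at 253 and 283 CPM against 32.0 and 42.5. PCNA stood at 128 and 157 CPM against 454 and 555, a ratio of 0.283 on both days, and MCM4 at 19.9 and 15.4 against 140 and 105, a ratio of 0.143 and 0.146. TOP2A, which is made from S phase on, differed by 1.33 and 1.21, and CDK1 by 0.59 and 0.45.

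Outside the cycle lists lay 32 of the 72 genes called higher and 37 of the 63 called lower. Leading genes outside all the lists are given first. ARL6IP1, which shapes the endoplasmic reticulum, stood at 1778 and 1299 CPM against 416 and 330 (2.09 and 1.97). SMTN, smoothelin, was at 1.96 and 1.74, and LOC123386982, CUNH7orf57 and THEM5 were the other 3 of the 5 highest. On the lower side were CDCA7, a chromatin gene of S phase (-3.43 and -3.43), BARD1, the partner of BRCA1 (-2.63 and -3.18), DSCC1, which loads the PCNA clamp (-1.69 and -2.01), LOC101693422 and LOC101688638. PAX6 differed by 0.51 and 0.45 and CDKN2D by 0.62 and 1.51.

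**Figure D3:**
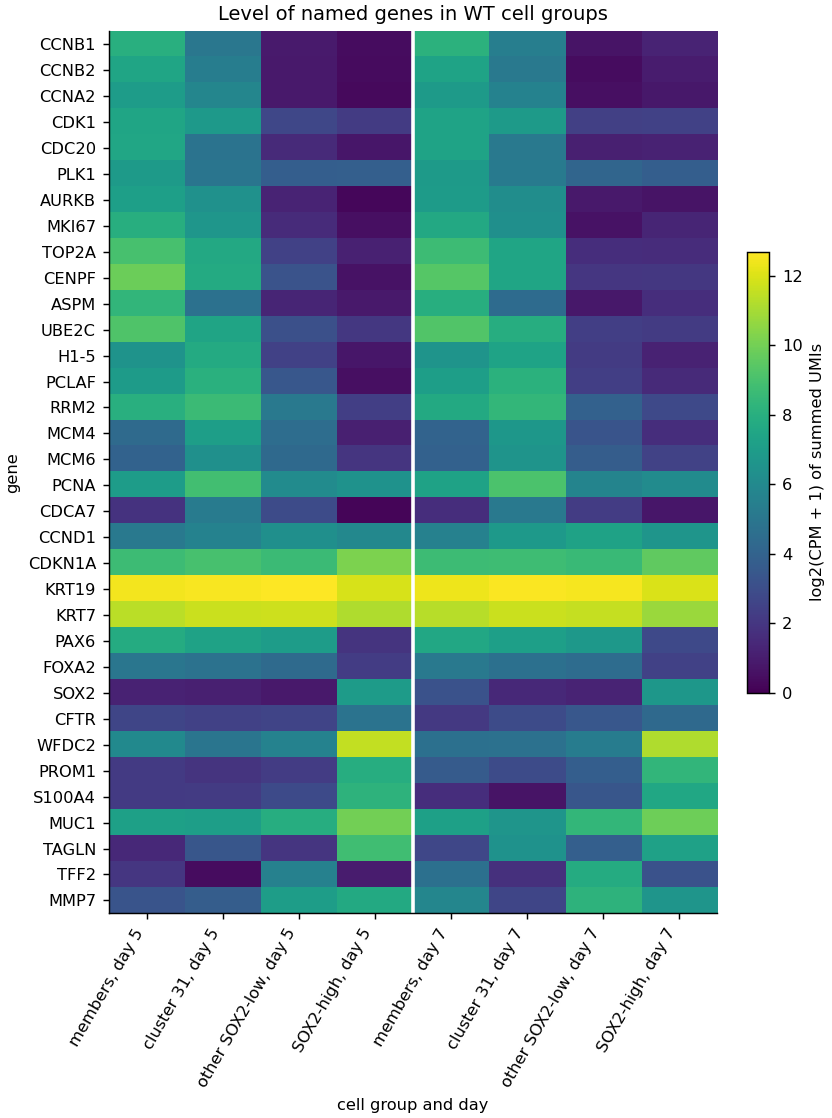
Level on log2(CPM + 1) of 34 genes in proliferating ductal cells, cluster 31, the other SOX2-low clusters and the SOX2-high clusters on D5 and D7. Mitotic genes are highest in the proliferating ductal cells, PCNA and MCM genes in cluster 31, and SOX2 is lower in the first 3 columns of each day than in the SOX2-high column.

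Against the WT class named Ductal as a whole, 3221 cells on D5 and 2350 on D7 that include cluster 31, 190 genes were called higher (2.02%) and 335 lower (3.56%). The highest outside the lists were FAM83D, GTSE1, DEPDC1, LOC101678877 and UBE2T. Among the lowest were PAPPA, SRGN, INHBA and NUAK1, of which INHBA, which encodes a subunit of activin, differed by -4.82 and -3.48.

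Cell by cell, mitotic and replication RNA went together. The share of a cell's UMIs in the mitotic lists had a median of 1.32% on D5 (range 0.168 to 2.96) and 1.28% on D7 (0.262 to 2.66) among the proliferating ductal cells, 0.491% and 0.417% in cluster 31 and 0.0837% and 0.0725% in the other SOX2-low cells. In 188 of 199 and 58 of 58 proliferating ductal cells this share was above the 99th percentile of the other SOX2-low cells, which was 0.238% and 0.212%. The share in the replication lists had a median of 0.199% and 0.203%, between the 0.424% and 0.466% of cluster 31 and the 0.0484% and 0.0395% of the other SOX2-low cells. Split at their own medians, 85 of the D5 cells were high in both shares and 86 low in both, with 14 and 14 in the mixed classes. On D7 the counts were 26, 26, 3 and 3. A cell high in mitotic RNA was thus usually also at the high end of the cluster for replication RNA. Both shares were counted in the same cells and share their depth.

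**Figure D4:**
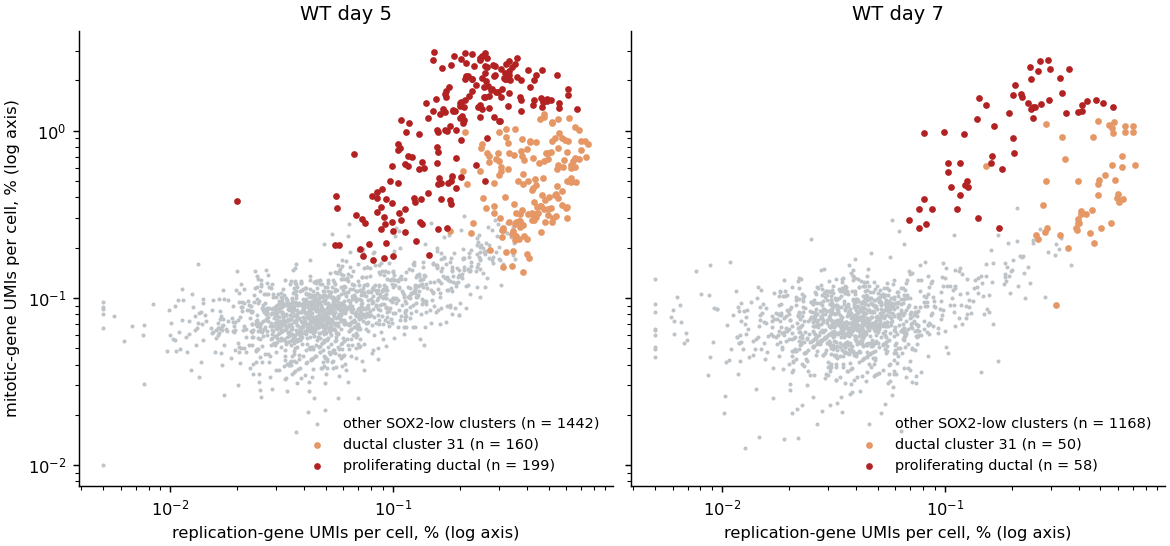
Each point is 1 cell of D5 or D7, by its percent of UMIs in the replication lists and in the mitotic lists, on log axes. Proliferating ductal cells (199 and 58) lie at the top, cluster 31 (160 and 50) to the right and lower, and the other SOX2-low cells (1442 and 1168) below.

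Within the cluster the genes did not all peak together. The cells of each day were ranked by mitotic share and divided into 4 groups of 49 to 50 cells on D5 and 14 to 15 on D7, with median shares of 0.313%, 0.891%, 1.54% and 2.32% on D5 and 0.340%, 0.902%, 1.41% and 2.04% on D7. TOP2A, CCNB1 and CDC20 belong to the ranking itself and climbed along it. TOP2A went from 11.4 through 265 and 569 to 1172 CPM on D5, and CCNB1 from 59.95 through 189 and 274 to 471. On D5 the lowest group was thus below the other WT cells in TOP2A, but well above their 2.50 CPM in CCNB1. On D7 it was above the other WT cells in both genes. The ranking is by mitotic share and gives no order in time.

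Genes that did not enter the ranking took different courses, of which those given here were chosen after their values were seen. H1-5 had its highest level in group 3, with 0.759, 30.5, 232 and 88.0 CPM on D5 and 2.29, 26.6, 206 and 99.8 on D7. PCNA also did, at 63.0, 77.9, 226 and 136 CPM on D5 and 57.2, 77.1, 295 and 144 on D7. CDKN2D climbed to group 4, at 8.35, 29.9, 56.9 and 87.3 CPM on D5 and 4.57, 37.2, 64.5 and 92.8 on D7, and ARL6IP1 was highest there at 3352 and 2319 CPM. RRM2 was also highest in group 4, at 53.1, 186, 351 and 393 CPM on D5 and 68.6, 74.5, 291 and 362 on D7, unlike PCNA. CCND1 stood at 40.2, 42.8, 41.0 and 11.2 CPM on D5 and 61.8, 37.2, 47.1 and 37.1 on D7, and MMP7 at 25.8, 3.52, 4.28 and 5.29 and at 80.1, 136, 29.7 and 0. PAX6 climbed less, from 160 to 297 CPM on D5 and from 151 to 232 on D7. KRT19 stayed between 5190 and 6009 CPM on D5 and between 4510 and 5785 on D7. The order of the groups was the same on both days for H1-5 and PCNA in that group 3 was highest and group 4 next, in different cells of different libraries. The median depth of the 4 groups was 18757, 35094, 28562 and 30054 UMIs on D5 and 29776, 20363, 40656 and 31039 on D7, and its part in these levels was not tested.

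**Figure D5:**
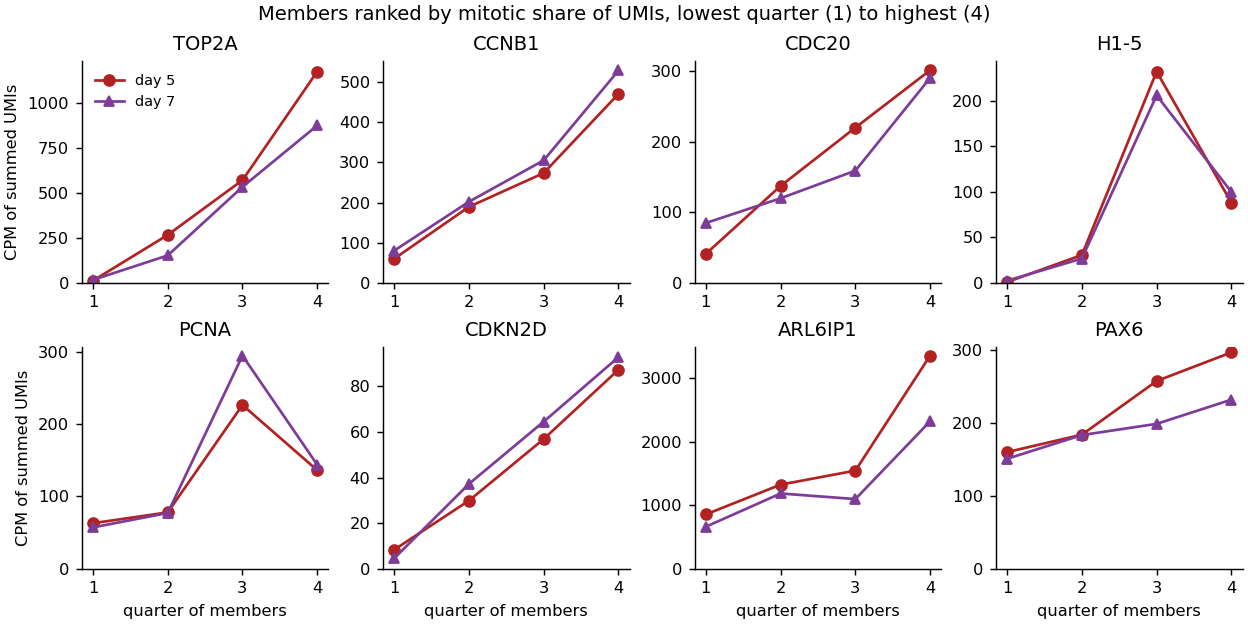
CPM of 8 genes in the proliferating ductal cells divided into 4 groups by their share of mitotic UMIs, from lowest to highest, for D5 and D7. TOP2A, CCNB1 and CDC20 enter that share, while H1-5 and PCNA, which do not, are highest in group 3 on both days.

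The proliferating ductal cells were 3.74% of the D5 cells and held 42.2% of the library's UMIs in the mitotic lists (42.0 to 42.5), and on D7 1.25% of the cells held 22.5% (22.2 to 22.7). Being deeper, they gave 6.10% of all UMIs on D5 and 2.19% on D7. On D2 they held 3.01% and on D9, where the group is 1 cell, 0.419%. Without cells above the 95th percentile of UMIs, which takes out 21 proliferating ductal cells on D7 and 44 on D5, the values were 14.9% on D7 and 39.6% on D5. Counted on the 5 cycle markers alone, they were 63.7% on D7 and 72.0% on D5. The library as a whole went from 2303 CPM of mitotic RNA on D2 through 1895 and 1166 to 706 on D9. The proliferating ductal cells themselves stood at 9734, 13132 and 11972 CPM on D2, D5 and D7.

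The other holders of mitotic RNA differed between the days. Cells outside the proliferating and acinar names and cluster 31 held 34.9%, 41.1%, 65.5% and 98.7% on D2, D5, D7 and D9. They gave 78.6%, 88.1%, 95.2% and 99.8% of all UMIs. On D2 the 650 cells named Prolif_acinar held 51.8%, on D5 no WT cell had that name and on D7 12 such cells held 2.40%. All SOX2-low cells together held 9.95% on D2, 76.1% on D5, 52.7% on D7 and 30.9% on D9, while they were 14.3%, 33.8%, 27.5% and 27.9% of the cells and gave 12.8%, 45.8%, 34.5% and 30.5% of all UMIs. On D9 the share of mitotic UMIs was thus about that of all UMIs. Of the cells with over 0.5% mitotic UMIs, 54 were SOX2-low and 498 SOX2-high on D2, and on D5 all 226 were SOX2-low, 148 of them proliferating ductal cells and 78 cluster 31. On D7 68 of 74 were SOX2-low, 45 of them proliferating ductal cells. The cut at 0.5% has 8, 17 and 7 proliferating ductal cells close to it on D2, D5 and D7, and cluster 31 has 30 on D5.

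Set against the Prolif_acinar cells of D2, the proliferating ductal cells had like levels of mitotic genes and differed in many others. This comparison is possible on D2, with 40 against 650 cells, and on D7 with 58 against 12, and each rests on 1 library. On D2, 622 genes were 2-fold higher (6.61%) and 726 lower (7.72%), but of the 67 mitotic genes none was higher and 1 lower, with a median difference of 0.09. Of the 31 replication genes 19 were lower, with a median of -1.18. WT clusters 25 and 28 both carry the name Prolif_acinar, with 4286 and 2057 CPM of replication RNA over all libraries. The proliferating ductal cells of D2 had 1881 CPM, and the part of each cluster in this difference was not tested. Interferon-response genes were higher in 5 of 6 cases, with a median of 2.18. Clusters 25 and 28 are SOX2-high, at 153 and 205 CPM of SOX2, so this comparison also sets SOX2-low against SOX2-high cells. The 2 cannot be told apart here. The interferon-stimulated genes ISG15 and IFIT3 were higher on D2 than on D5 in the other SOX2-low cells too, as given further on. KRT4, KRT5 and KRT15 were lower, which is 3 of the 4 tested genes of the list of basal and squamous keratins with TP63. KRT5 and KRT15 also belong to the 9 ductal markers, of which 2 were higher and 2 lower than in the Prolif_acinar cells. Of the 7 acinar-like genes 4 were lower and 0 higher. PAX6 stood at 183 against 5.83 CPM and SOX2 at 14.7 against 175.

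The genes highest on D2 by difference were ECRG4, which encodes a secreted peptide (294 against 0.832 CPM), NRN1, a membrane-anchored neurotrophic protein (211 against 1.34), LOC101674231, DDX60, an interferon-induced helicase, and NR5A2, a nuclear receptor of pancreas and liver. The lowest were RAB34 (0 against 106 CPM), TCAF1, TBX1, a T-box factor, LOC101675320 and CNTLN. On D7, against 12 cells, 1245 genes were 2-fold higher (13.2%) and 581 lower (6.18%), with 28 of 67 mitotic genes higher. Of the tested genes 345 had 0 UMIs in at least 1 of these groups, and 3 UMIs in the 12 cells came to 7.95 CPM. The part of this floor in the counts was not tested. MMP7, TMEM92, MTSS1, BLOC1S3 and FHIP1A were highest there, and LTB, TACC1, LOC101675320, ECHS1 and RSPH4A lowest. The highest genes had no UMI in the 12 cells, so their order follows their level in the proliferating ductal cells. MMP7 was thus at 5.85 on the log2 scale, a value that depends on the added 1 CPM. LTB, a cytokine of the tumour necrosis factor family, was at -5.50.

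Between days, the proliferating ductal cells differed as follows. Tested genes were compared where the proliferating ductal cells held at least 30 UMIs on 1 or both days. Of 8846 genes compared, 27 were at least 2-fold higher on D7 than on D5 and 64 lower. In the other SOX2-low cells 11 and 3 of these moved the same way by 2-fold. TFF2 was higher by 2.66, against 2.27 in the other SOX2-low cells, with 1, 40, 0 and 4 UMIs on D7 in the 4 groups by mitotic share, so that 15 cells held most of them. MMP7 was higher by 2.54 against 1.13. FN1, fibronectin, was lower at -2.42 against -0.95. From D2 to D5, with 40 cells behind the D2 values, 390 of 8843 genes were higher and 130 lower. Of these, 46 and 25 moved the same way by 2-fold in the other SOX2-low cells. The sums held 815672 UMIs on D2, 6169348 on D5 and 1817269 on D7, so a gene could pass through D5 alone. On these days 3 UMIs came to 3.68, 0.486 and 1.65 CPM. The part of the 30 UMI rule and of this floor in the counts of both comparisons was not tested. LY6D, a lipid-anchored membrane protein, was higher by 5.11 against 5.14, and WFDC2 by 3.8 against 3.69. The interferon-stimulated genes ISG15 and IFIT3 were lower at -2.78 against -3.97 and at -2.65 against -3.97. ECRG4 was lower at -2.86 against -0.49. These are differences between single libraries with no replicate, and the genes of this paragraph were chosen after their values were seen.

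The CF cluster with the highest level of mitotic RNA was number 24, which carries the name Prolif_acinar. It held 154, 40, 4 and 2 cells on D2, D5, D7 and D9, with mitotic levels of 9139, 10354, 12313 and 5294 CPM. After it came 2 CF clusters named ductal, number 10 with 2069 CPM of mitotic and 2222.5 CPM of replication RNA and number 9 with 1421 and 698 CPM, beside 12583 and 2218 CPM in the proliferating ductal cells over all libraries. Over the 9404 tested genes the D5 proliferating ductal cells correlated with cluster 24 at r = 0.954, with the other WT SOX2-low cells at 0.952 and with the WT SOX2-high cells at 0.796. On D7, where the CF cluster is 4 cells, the values were 0.857, 0.933 and 0.838. These correlations describe sums over cells that differ in number and depth, and they carry no test.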

How the data were processed

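Single-cell RNA was measured in 8 libraries, 1 for each genotype and day. The deposited matrices hold whole-number counts of UMIs per gene and cell, which the authors made with Cell Ranger 5.0.1 from the ferret assembly ASM1176430v1.1 and deposited without normalization. A deposited cell table gives clusters and cell names, the percent of mitochondrial UMIs per cell as the authors computed it with Seurat in R 4.1.2, and phase scores that the authors computed per cell, of which the calls are used here. Per the study's methods, cells under 200 genes or over 20% mitochondrial reads were left out, doublets were removed, and WT and CF were clustered apart. No column of cell values lacked a sample. Of 27912 gene names 27467 matched the RefSeq gene table of that assembly.

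Members were the cells named Prolif_ductal, and all 298 had UMI totals within 0.1% of the deposited ones. UMIs were summed per library and cell group and scaled to CPM. Differences are log2((CPM + 1) of members) minus the same of the comparison cells within a library. Genes had a mean of at least 5 CPM over the 4 WT libraries, members included, and a call needed 2-fold in the same direction on D5 and D7. Intervals are exact (Poisson, Clopper-Pearson and conditional binomial, at 95%) and cover counting error only, since cells of 1 library are not replicates. Totals behind the members were 815672 UMIs on D2, 6169348 on D5 and 1817269 on D7. Cells were thinned to 3000 UMIs for shares of cells with a UMI, and 0 counts allow up to 3.

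The members and the lists (397 genes in 35 lists, 366 in the files, 259 tested) were chosen with earlier results of these data known. Named genes were, for each list, those of the largest mean difference over D5 and D7 with at least 30 UMIs, plus defining genes not called. Outside the lists they were the 10 highest and 10 lowest called genes with at least 10 UMIs, or 5 and 5 against the ductal and proliferating acinar names. PLK1, SKA2, TUBB, ISL1, CFTR, CD68, PRDX2, NUPR1, KRT4, KRT5 and KRT15 on D2, the genes of the 4 groups of members and those of the day comparison were chosen after their values were seen, and so were the SOX2-low clusters, cluster 31 and Prolif_acinar of D2 as comparison cells. Alternatives changed the pseudocount, the filter, the fold, the scaling (TMM of edgeR 4.0.16, size factors of DESeq2 1.42.0, both in R 4.3.3), the weight of cells, the comparison cells and the library. The calling script was checked on simulated counts. Analyses ran in Python 3.11.15 with numpy 2.4.6, scipy 1.17.1, pandas 2.3.3 and matplotlib 3.10.9. Promoter sequences were not analysed here. Some results are not reported here.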

Additional observations from a re-analysis of the deposited data

How the results depend on the processing

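With 1 library for each genotype and day, no call carries a p-value, and what limits each value is the number of cells, 40, 199 and 58 on D2, D5 and D7, and their UMIs. No paired analysis was possible because the labels carry no replicate number and no cell is assigned to an animal. Every difference between members and other cells was taken within a library, and it carries no test across libraries, since the members were clustered on the same genes. The comparisons with the SOX2-low clusters, with cluster 31 and with Prolif_acinar on D2 were added after seeing the data, and the cause of each change below was not tested unless fewer genes or cells were compared.

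The 273 genes higher than in other WT cells became 467 with no filter beyond 1 UMI, 101 at 20 CPM or more, 102 at 4-fold and 72 against cluster 31. With no filter beyond 1 UMI 19935 genes were tested and at 20 CPM or more 5577, in place of 9404. The 563 lower genes became 368 with a pseudocount of 5 CPM, 326 at 20 CPM or more, 199 at 4-fold, 335 against the ductal name alone, 49 against the SOX2-low clusters and 63 against cluster 31. They were 265 and 594 with TMM factors, 268 and 586 with DESeq2 size factors, 315 and 651 with equal weight for each cell, 335 and 592 without cells above the 95th percentile of UMIs and 272 and 565 without Prolif_acinar cells. The median gene stood at -0.03 and 0.01 (log2) on D5 and D7 by CPM, at -0.03 and -0.07 with TMM factors and at -0.03 and -0.05 with size factors.

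Mitotic genes higher went from 65 to 12 at 20 CPM or more and to 40 against cluster 31. Replication genes higher went from 21 to 8 at 20 CPM or more, 5 at 4-fold, 10 against the ductal name alone and 0 against cluster 31. The 20 CPM filter changes no difference between cell groups, so the lower counts with it come from genes left untested. Trefoil factors and mucins lower went from 8 to 2 against the ductal name alone, 5 against the SOX2-low clusters and 0 against cluster 31, and contractile and matrix genes lower from 7 to 0 and 1 against the SOX2-low clusters and cluster 31. Against Prolif_acinar the higher genes went from 1245 on D7 to 622 on D2.

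The share of mitotic UMIs went from 3.01% to 4.47% on D2, from 42.2% to 72.0% on D5 and from 22.5% to 63.7% on D7 with the 5 cycle markers alone, and to 2.71%, 39.6% and 14.9% without cells above the 95th percentile of UMIs. Without those cells the median depth of the members was 25542 on D5 and 22995 on D7. The median share of cells with a UMI of a cycle marker went from 39.7% to 83.9% without thinning and 49.7% at 5000 UMIs on D5, and from 41.4% to 89.7% and 58.6% on D7.

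Among the genes named and called against other WT cells, the mean log2 difference of both days turned direction with the comparison cells added after seeing the data and with no other setting tried. Genes not called, among them KRT19, PCNA, MCM2, MCM4 and MCM6, turned as well. Against the SOX2-low clusters CALD1 (1.03), SOX2 (1.12), PRDX2 (0.80) and LOC106005313 (0.089) came out higher. Against cluster 31 RRM2 (-0.68), DCK (-0.053), MCM10 (-0.90), MYBL2 (-0.55), PCLAF (-1.05), H1-5 (-1.02) and ESCO2 (-0.58) came out lower. MUC1 (0.34), WFDC2 (0.53), CALD1 (0.15), PRDX2 (0.11), PROM1 (0.49), SOX2 (0.90), LYPD2 (0.14), LOC106005313 (0.61), TCIM (0.0197), ENPP3 (0.22), CUNH15orf48 (0.056) and PDZK1IP1 (0.54) came out higher there.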
